A study of Mus musculus with 10 samples.

Results

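The 10 immediate early genes Fos, Fosb, Jun, Junb, Egr1, Ier2, Ier3, Btg2, Dusp1 and Myc were followed through liver RNA-seq libraries of old mice. They were chosen by symbol in the deposited table, which holds 55487 genes, and each symbol matched 1 gene. The LKO livers came from mice lacking Arg2 in hepatocytes, and the Flox livers, the controls, came from littermates with both Arg2 alleles floxed. All mice were of strain C57B/6J as labelled, ate chow, were housed together and were 22 months old, and each group had 5 libraries. The sources used here do not give the promoter that drives the recombinase or the hour at which livers were taken.

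Immediate early genes are transcribed within minutes of a stimulus, without new protein synthesis, because factors such as SRF with its ETS partners and CREB already sit at their promoters and are activated by kinase cascades. Their mRNAs decay quickly, so their level at any moment follows recent signals. Fos and Jun family proteins pair as the transcription factor AP-1, Egr1 is a zinc finger factor, and Dusp1 is a phosphatase that switches off the MAP kinases that induce it. In liver these genes are known for their early induction after partial hepatectomy and by feeding, stress hormones and cytokines.

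Promoter sequences from RefSeq (build GRCm38.p6) were matched for 7 of the 10 genes, all but Egr1, Ier2 and Myc. The 250 bases before the transcription start, 5′ to 3′ on the gene's strand, are shown for 5 genes whose levels are compared below. Capitals mark TGACG on either strand (the core of the CREB site), TGACATCA (a variant AP-1 site) and TATAAA.
Fos (chr12:85473640-85473889, plus strand): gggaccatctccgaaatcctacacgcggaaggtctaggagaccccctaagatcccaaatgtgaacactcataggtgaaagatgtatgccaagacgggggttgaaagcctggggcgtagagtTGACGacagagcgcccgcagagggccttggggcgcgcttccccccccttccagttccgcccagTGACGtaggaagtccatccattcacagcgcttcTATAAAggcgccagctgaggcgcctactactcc
Jun (chr4:95052223-95052472, minus strand): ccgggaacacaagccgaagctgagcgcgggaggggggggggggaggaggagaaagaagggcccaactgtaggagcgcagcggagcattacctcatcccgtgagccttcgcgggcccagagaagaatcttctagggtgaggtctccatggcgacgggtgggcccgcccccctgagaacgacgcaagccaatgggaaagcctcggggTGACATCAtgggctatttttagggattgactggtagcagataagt
Junb (chr8:84978749-84978998, minus strand): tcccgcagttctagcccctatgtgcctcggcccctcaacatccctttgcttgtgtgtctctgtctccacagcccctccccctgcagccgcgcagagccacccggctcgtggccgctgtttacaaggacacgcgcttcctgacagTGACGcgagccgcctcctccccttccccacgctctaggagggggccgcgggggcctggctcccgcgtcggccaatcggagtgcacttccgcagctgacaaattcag
Btg2 (chr1:134079156-134079405, minus strand): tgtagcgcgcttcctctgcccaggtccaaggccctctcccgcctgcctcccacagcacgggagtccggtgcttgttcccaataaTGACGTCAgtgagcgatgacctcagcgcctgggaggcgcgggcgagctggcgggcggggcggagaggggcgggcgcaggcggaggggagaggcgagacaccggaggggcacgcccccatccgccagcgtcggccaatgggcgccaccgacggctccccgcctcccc
Dusp1 (chr17:26508473-26508722, minus strand): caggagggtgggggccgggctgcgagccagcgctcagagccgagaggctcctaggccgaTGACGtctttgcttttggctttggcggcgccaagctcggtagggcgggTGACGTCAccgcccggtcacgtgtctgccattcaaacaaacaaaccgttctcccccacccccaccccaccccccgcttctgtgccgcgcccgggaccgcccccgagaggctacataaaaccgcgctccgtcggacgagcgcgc

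TGACG or its reverse complement was found in 5 of the 7 windows (Fos, Fosb, Junb, Btg2 and Dusp1), against 20.8% of all 32851 RefSeq windows reaching from 250 bases before to 50 bases after a start. The full palindrome TGACGTCA, which contains TGACG, occurred in Btg2, beginning 166 bases before the start, and in Dusp1, beginning 143 bases before it, and in 1.79% of all windows. In Fos the TGACG matches began 129 and 66 bases before the start and TATAAA 33 bases before it. Jun held TGACATCA beginning 45 bases before the start, a match shared by 3.62% of all windows. On both strands, TATAAA was found in 2 of 7 windows (13.6% of all), CCAAT in 4 of 7 (37.4%) and GCGNGGGCG in 2 of 7 (5.55%). TGANTCA (7.81% of all) and the CArG box (1.63%) had no match in the 7 windows. These matches describe letters only.

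Library totals ran from 43331354 to 53891438 counts in LKO and from 44926666 to 54951415 in Flox. Arg2 had 0, 0, 0, 4 and 6 counts in LKO columns 1 to 5, against 0, 4, 0, 5 and 0 counts in Flox libraries 1 to 5. A count of 0 allows up to 3 counts, so at this depth no difference could be seen, and a whole-gene count is no check of a deletion. LKO libraries are called by their column number because those numbers do not match the sample titles. All 7 hepatocyte markers were expressed. Their sums were 124419 to 153185 CPM (read counts scaled to a common library size) in LKO. In Flox they were 53578 to 123950 CPM, without overlap. Red cell markers summed to 446 to 868 CPM in LKO and 228 to 414 CPM in Flox, also without overlap. Taken singly, only 1 of 7 hepatocyte markers (Alb, the albumin gene) and 2 of 6 red cell markers did not overlap. The share over all tested genes was 0.906%. As mean log2 CPM, both marker sets overlapped. The hepatocyte mean was 12.05 in LKO column 5 and 12.08 in Flox 5. The red cell mean was 4.43 in LKO column 5 and 4.79 in Flox 3. What part either marker set has in the values below was not tested. In bulk tissue, fewer cells of a type and less RNA per cell cannot be told apart. No label says that each library is a separate mouse, so p-values measure only the spread between these libraries.

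All 10 genes passed the filter on low counts. Levels between genes were compared as CPM per kilobase of merged exons (GENCODE M21, GRCm38). Junb was highest at 16.9 ± 8.12 and Ier2 next at 15.1 ± 2.90 CPM per kilobase (SD, n = 10 libraries), and Junb exceeded Ier2 in 5 of 10 libraries, so these neighbours did not differ beyond their spread. Ier2 exceeded Jun (6.42 ± 1.98) in 10 of 10 libraries. Below Jun came Dusp1 (4.97 ± 1.74), Btg2 (3.24 ± 0.883), Egr1 (3.14 ± 2.54) and Myc (2.01 ± 1.78), and each of Jun, Dusp1, Btg2 and Egr1 exceeded the next gene in 7 of 10 libraries, within the spread. Ier3 (0.520 ± 0.303) and Fos (0.388 ± 0.143) were lower and overlapped, with Ier3 the higher in 6 of 10 libraries. Fosb was lowest at 0.0395 ± 0.0261, below Fos in 10 of 10 libraries. The old livers thus held far more Junb and Jun than Fos or Fosb mRNA per kilobase.

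The main question was whether loss of Arg2 from hepatocytes changed these genes. None of the 10 passed edgeR's quasi-likelihood test at an adjusted p under 0.05, as did 0.0% of all 15894 genes tested, and 0 of the 10 had an unadjusted p under 0.05, against 7.51% of all genes. The 2 groups of livers overlapped for all 10 genes, whereas 0.906% of all genes had groups that did not overlap. Log2 fold changes of LKO over Flox were positive for 6 genes and negative for 4, with a median of 0.14, and 48.4% of all tested genes were positive, with a median of -0.0081. The interval of the difference reached beyond a 2-fold change for Fos, Fosb, Junb, Egr1, Ier3, Dusp1 and Myc, so changes of that size cannot be told from none at this spread.

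**Figure D1:**
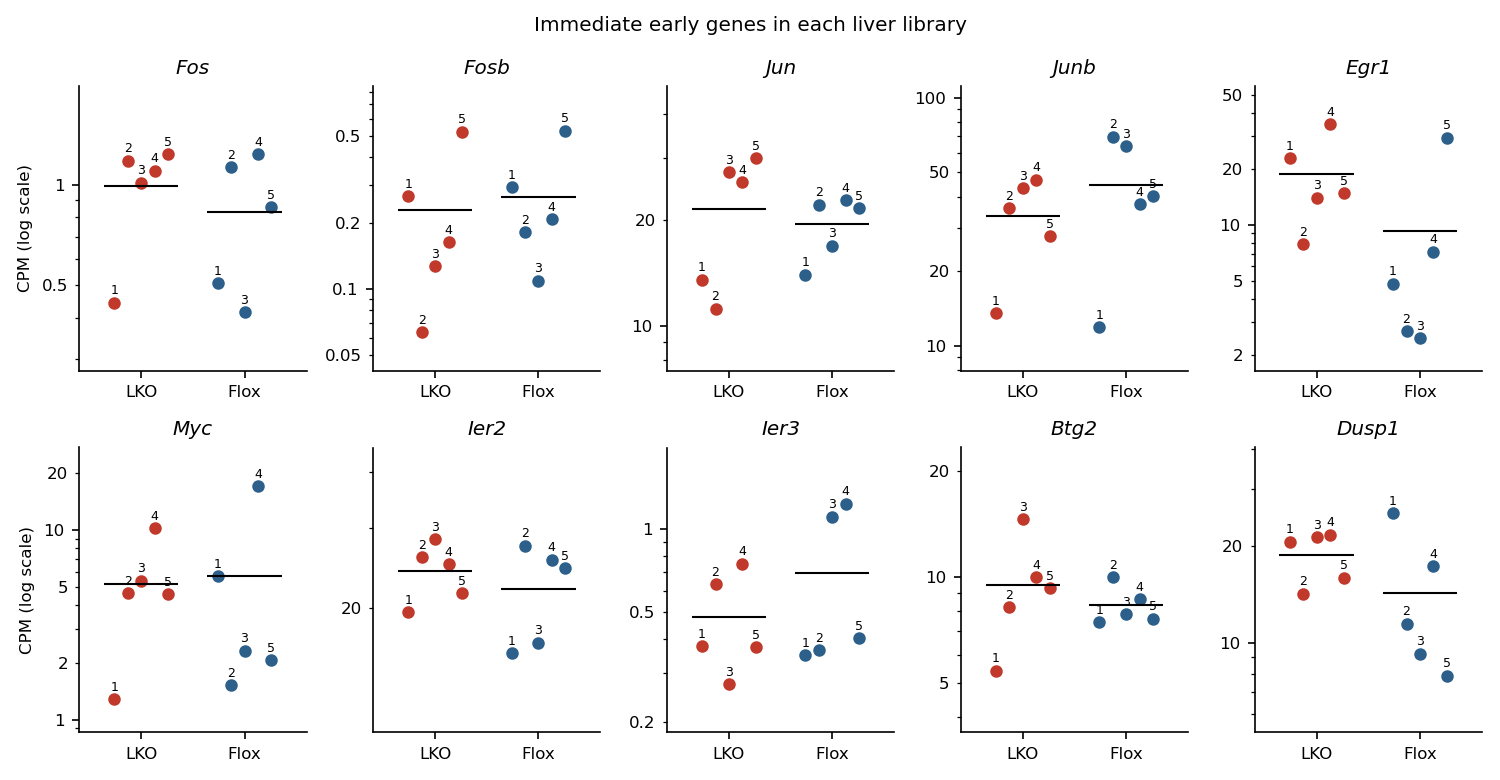
Level of each gene in CPM, on log axes, in the 5 LKO libraries (left, red) and the 5 Flox libraries (right, blue). Digits are column numbers and bars are arithmetic means. The groups overlap in all 10 panels, and Egr1 runs from 2.47 CPM in Flox 3 to 34.7 CPM in LKO column 4.

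Among the AP-1 genes, Fos (chromosome 12, 85473890 to 85477273, GRCm38), the founding Fos family member, was scarce in both groups. It stood at 0.444, 1.18, 1.02, 1.10 and 1.24 CPM in LKO columns 1 to 5, against 0.506, 1.13, 0.415, 1.24 and 0.859 CPM in Flox libraries 1 to 5. LKO column 1, Flox 1 and Flox 3 lay at or below 0.506 CPM, and the other 7 libraries between 0.859 and 1.24 CPM. LKO over Flox gave a log2 fold change of 0.26 ± 0.36 (SE, adjusted p = 0.843). Fosb (chromosome 7, 19302696 to 19310051), a Fos relative that also gives a truncated form, had only 3 to 28 counts in LKO libraries and 5 to 29 in Flox libraries. Its highest levels were 0.524 CPM in LKO column 5 and 0.530 CPM in Flox 5. The log2 fold change of -0.20 ± 0.56 (adjusted p = 0.928) turned to 0.22 without Flox 5 and to 0.04 without LKO column 2.

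Jun (chromosome 4, 95049034 to 95052222), the central Jun family partner, had 13.5, 11.2, 27.3, 25.5 and 29.9 CPM in LKO columns 1 to 5, against 14.0, 22.1, 16.9, 22.8 and 21.6 CPM in Flox libraries 1 to 5. The LKO livers thus held both the 3 highest and the 2 lowest values of all 10. Between groups the log2 fold change was 0.14 ± 0.27 (adjusted p = 0.891), and -0.0049 without LKO column 5. Jun shares 232 exon bases with the antisense RNA Junos, which had at most 33 counts in a library. Junb (chromosome 8, 84974484 to 84978718), a Jun relative with weaker activity that is also a cytokine target, had 13.6, 35.9, 43.2, 46.7 and 27.6 CPM in LKO columns 1 to 5, against 11.9, 69.6, 63.7, 37.2 and 40.1 CPM in Flox libraries 1 to 5. The first library of each group was lowest, and Flox 2 and 3 were the highest of all. The log2 fold change of -0.41 ± 0.46 (adjusted p = 0.800) became 0.16 without Flox 2 and 3. Junb shares 173 exon bases with Prdx2 on the other strand, which had 3334 to 5451 counts per library, against 612 to 3440 for Junb. Without a stated strand setting, reads from the shared bases cannot be told apart.

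Egr1 (chromosome 18, 34859823 to 34864984), a zinc finger factor that binds GC-rich promoters, had the largest difference of the 10 genes. Its levels were 22.8, 7.90, 14.0, 34.7 and 14.7 CPM in LKO columns 1 to 5, against 4.83, 2.69, 2.47, 7.17 and 29.3 CPM in Flox libraries 1 to 5. The 5 LKO livers all lay above 4 of the Flox livers, but Flox 5 was the second highest of all 10. The log2 fold change was 1.01 ± 0.73 (95% interval -0.62 to 2.65, adjusted p = 0.705). Without Flox 5 it was 2.13, where it still did not pass (adjusted p = 0.358), and it was 0.67 without LKO column 4 and 0.45 without Flox 2 and 3. Over all the alternatives run, the adjusted p of Egr1 ranged from 0.358 to 0.999.

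Myc (chromosome 15, 61985391 to 61990374), the growth-promoting helix-loop-helix factor, had 1.29, 4.65, 5.39, 10.2 and 4.57 CPM in LKO columns 1 to 5, against 5.70, 1.52, 2.31, 17.0 and 2.06 CPM in Flox libraries 1 to 5. Flox 4 was highest and LKO column 1 lowest, a 13.2-fold range over the 10 libraries. The log2 fold change of -0.14 ± 0.73 (adjusted p = 0.961) had no stable direction, at 0.84 without Flox 4, 0.11 without LKO column 1 and 0.26 when column number was blocked.

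The small response genes Ier2 and Ier3 differed from each other in level and spread. Ier2 (chromosome 8, 84661331 to 84662852), a nuclear protein of the early growth response, was the steadiest of the 10, at 19.5, 25.9, 28.3, 24.95 and 21.5 CPM in LKO columns 1 to 5, against 15.8, 27.5, 16.7, 25.6 and 24.4 CPM in Flox libraries 1 to 5. Its highest library exceeded its lowest by 1.79-fold, and the log2 fold change was 0.13 ± 0.17 (95% interval -0.24 to 0.49, adjusted p = 0.832). Ier3 (chromosome 17, 35821684 to 35822923), a regulator of cell survival, had 0.377, 0.634, 0.275, 0.751 and 0.374 CPM in LKO columns 1 to 5, against 0.350, 0.364, 1.11, 1.24 and 0.402 CPM in Flox libraries 1 to 5. Flox 3 and 4 stood above the other 8 libraries. Ier3 had a log2 fold change of -0.53 ± 0.45 (adjusted p = 0.748), which was -0.21 without Flox 4.

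Of the genes that restrain growth and signalling, Btg2 (chromosome 1, 134075170 to 134079120), an antiproliferative partner of the mRNA deadenylation machinery, had 5.41, 8.20, 14.6, 10.001 and 9.28 CPM in LKO columns 1 to 5. In Flox libraries 1 to 5 it had 7.42, 9.997, 7.84, 8.65 and 7.60 CPM. The LKO values lay on both sides of the whole Flox range. The log2 fold change was 0.19 ± 0.21 (adjusted p = 0.797), and -0.013 without LKO column 3. Dusp1 (chromosome 17, 26505590 to 26562128), the MAP kinase phosphatase and a glucocorticoid target, had 20.6, 14.2, 21.3, 21.6 and 15.9 CPM in LKO columns 1 to 5, against 25.2, 11.5, 9.24, 17.2 and 7.89 CPM in Flox libraries 1 to 5. Flox livers held the highest and the 3 lowest values. For Dusp1 the log2 fold change was 0.40 ± 0.30 (adjusted p = 0.714), at 0.70 without Flox 1 and 0.25 without Flox 5. The annotated span of Dusp1 overlaps Ergic1 on the other strand, with 11 shared exon bases and 2439 to 4576 counts per library for Ergic1, against 423 to 1295 for Dusp1.

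**Figure D2:**
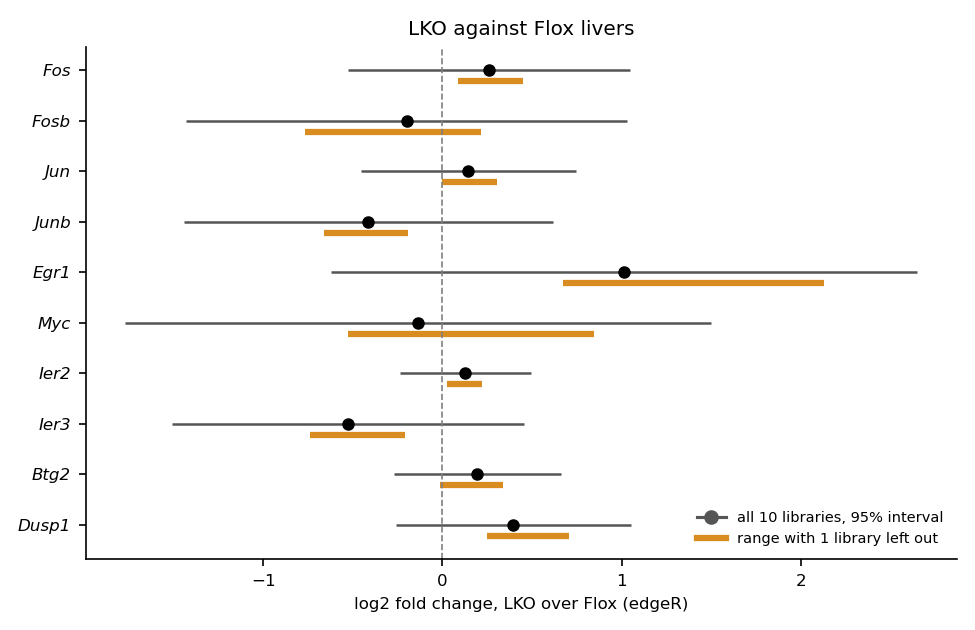
Log2 fold change of LKO over Flox from edgeR for each gene (points) with its 95% interval (grey lines) and the range of the fold change with 1 library left out (orange bars). All 10 intervals include 0, and the orange bars of Fosb, Jun, Btg2 and Myc cross 0.

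Within a group, livers varied in these genes by more than the all-gene median, as they also did in several other lists. The within-group SD of log2 CPM had a median of 0.67 over the 10 genes, against 0.29 over all tested genes, and lay above that all-gene median for 10 of 10. Larger medians were found for acute phase genes (0.998), clock genes (0.951), Kupffer cell markers (0.950) and genes responsive to glucocorticoids and fasting (0.751). The same held for markers of neutrophils (1.37, the largest), B and plasma cells (0.849) and T and NK cells (0.741). Low counts raise this SD, so each gene was ranked among the tested genes within 0.5 log2 units of its own mean level. Egr1 (SD 1.16), Myc (1.25) and Junb (0.88) lay at the 98.6, 98.6 and 98.4 percentiles, Dusp1 (0.52) and Jun (0.51) at 94.5 and 94.4, and Btg2 and Ier2 at 84.6 and 83.9. Ier3, Fos and Fosb lay at the 74.2, 73.1 and 66.8 percentiles. For Fosb, counting error alone would give an SD of about 0.51 log2 units, taken from the raw counts. Its SD of 0.83 comes from log2 CPM with a prior count of 2, which shrinks low counts, so 0.51 is not a share of it. For Junb, counting error would give 0.038. The SD was larger in LKO than in Flox for Fosb, Jun and Btg2, or 3 of 10 genes, against 40.6% of all genes. For Btg2 the SD was 0.51 in LKO and 0.18 in Flox, and for Dusp1 0.28 in LKO and 0.68 in Flox, differences that were not tested. For some genes a single library set much of this spread, though leaving out the most extreme of 5 values lowers any SD. With 1 library left out, the SD of Jun in LKO was 0.52 to 0.71 and that of Ier3 in Flox 0.75 to 0.93. These stayed near their values over all 5 libraries (0.65 and 0.86). Larger drops were picked out for the following genes. Without LKO column 1 the LKO SD was 0.12 for Fos, 0.34 for Junb and 0.54 for Myc, against 0.58, 0.72 and 1.07 with it. The Flox SD was 0.46 for Junb without Flox 1, 0.72 for Egr1 without Flox 5 and 0.81 for Myc without Flox 4, against 1.01, 1.44 and 1.404 over all 5 Flox libraries.

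**Figure D3:**
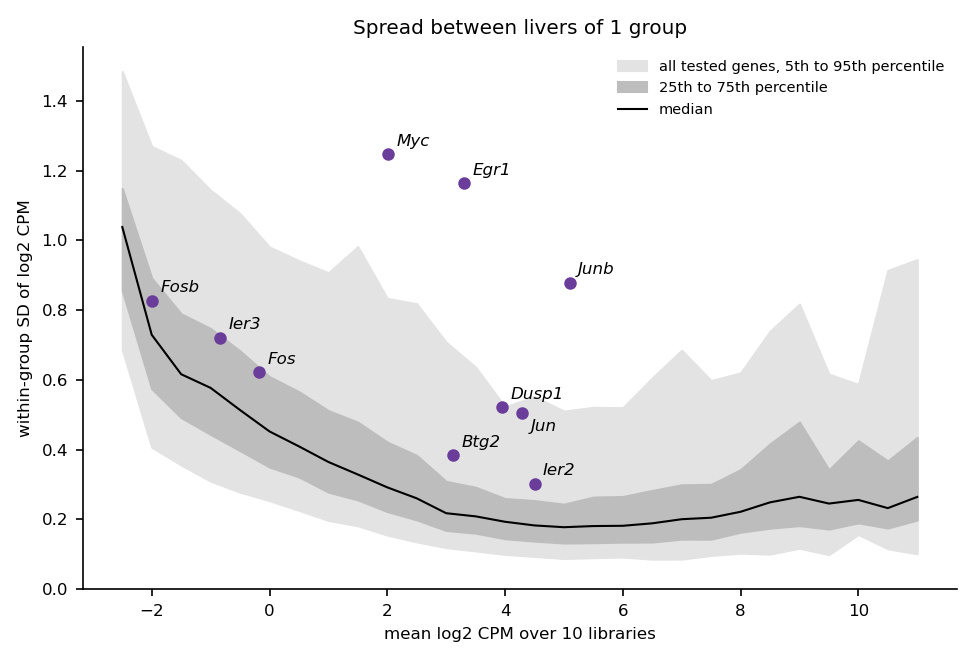
Within-group SD of log2 CPM against mean log2 CPM over the 10 libraries. Shaded bands and the line give percentiles of all tested genes at each level, and points are the immediate early genes. Myc, Egr1 and Junb stand above the 95th percentile band. Jun, Dusp1, Btg2 and Ier2 lie inside the bands, as do Fosb, Ier3 and Fos, which have few counts.

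Single livers were high or low for several genes at once, but not for all. LKO column 1 was lowest of its group for Fos, Junb, Ier2, Btg2 and Myc, and LKO column 4 was highest for Junb, Egr1, Ier3, Dusp1 and Myc. Among Flox livers, library 1 was lowest for Jun, Junb, Ier2, Ier3 and Btg2 yet highest for Dusp1, and library 4 was highest for Fos, Jun, Ier3 and Myc. For every gene some library of a group must be lowest and some highest. How often each library was so over all tested genes was not counted. LKO column 1 also had the fewest genes detected of all libraries (21937). Whether these ranks are particular to the immediate early genes was not tested.

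Genes were also compared in pairs over the 10 libraries. Of 45 pairs, 27 had a positive Pearson r and 18 a negative one, with a median of 0.207 and a range of -0.606 (Junb with Dusp1) to 0.841 (Fos with Ier2). No pair passed a two-sided permutation test after adjustment over the 45 pairs, by Pearson's r or by Spearman's rho. Unadjusted, 2 pairs had p under 0.05, where 7.51% of all pairs of tested genes had an absolute r at least as large as the smaller of those 2, and 3.89% a positive one. Fos and Ier2 had r = 0.841 and rho = 0.576 (permutation p = 0.00691 and 0.0874, adjusted 0.311 and 0.786). From deviations around the group means r was 0.829, and without Flox 3 and LKO column 1, the libraries with the most extreme Fos level, it was 0.782. Jun and Btg2 had r = 0.674 and rho = 0.770 (permutation p = 0.0253 and 0.0126, adjusted 0.558 and 0.394). Their r was 0.674 from deviations and 0.663 without LKO columns 1 and 2. Among Fos, Ier2, Btg2, Jun and Junb the 10 pairwise values of r were all positive, and these 5 genes were picked out after the values were seen.

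**Figure D4:**
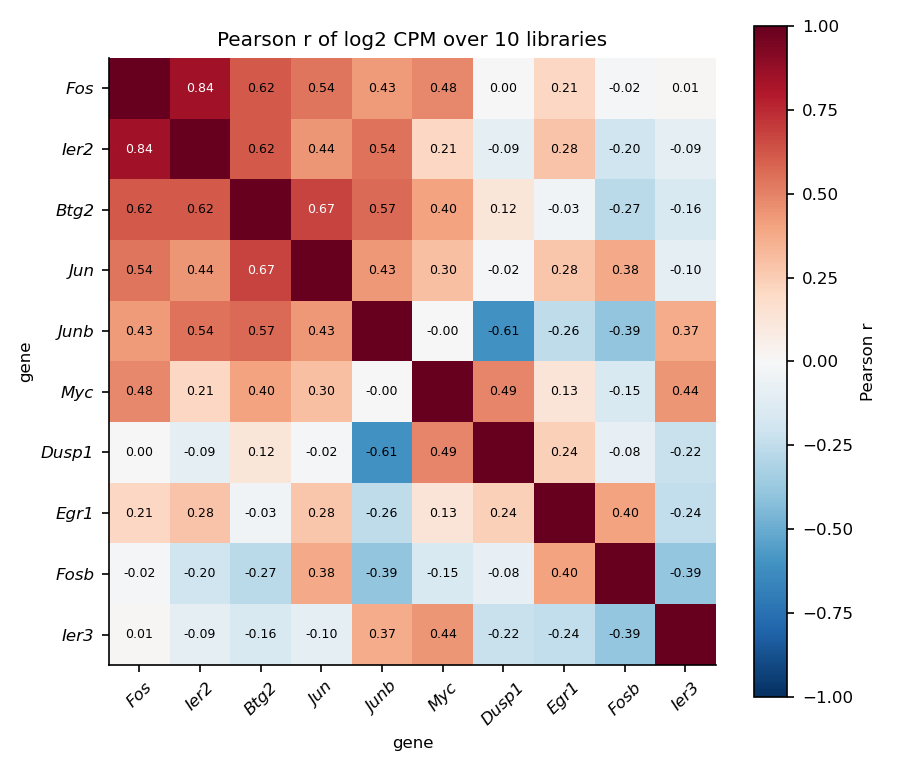
Pearson r of log2 CPM over the 10 libraries for each pair of genes, from blue (negative) to red (positive). Fos with Ier2 is highest at 0.841, and Junb with Dusp1 is lowest at -0.606.

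Each gene was also set beside the mean log2 CPM of acute phase genes, Kupffer cell markers, clock genes and heat shock genes, and beside the mitochondrial share of counts (log2). None of the 50 relations passed after adjustment, and 7 of the 50 had an unadjusted p under 0.05. By measure, 8.02% to 22.8% of all tested genes had an absolute r of at least 0.674. Of the 7 relations, those of Fos to the clock score (0.641) and Dusp1 to the mitochondrial share (0.643) fell short of that size. Egr1 was lower where the acute phase score was higher, with r = -0.818 and rho = -0.758 (permutation p = 0.00415 and 0.0155, adjusted 0.207 and 0.278). From deviations around the group means r was -0.753. Without Flox 2 and 3, the livers of most extreme score, it was -0.543 (exact permutation p = 0.165). Over these 8 libraries, with their narrower range of scores, a weaker relation cannot be told from none. With 1 library left out r stayed negative, from -0.933 without Flox 1 (exact permutation, adjusted p = 0.0205) to -0.743 without Flox 3 (adjusted p = 0.413). Fosb, with few counts, had r = -0.585 and rho = -0.709 to this score (permutation p = 0.0772 and 0.0268, adjusted 0.285 and 0.278). Its r was -0.783 from deviations and -0.611 without Flox 2 and 3. Junb ran the other way, with r = 0.690 and rho = 0.661 (permutation p = 0.0293 and 0.0444, adjusted 0.285 and 0.278), and r was 0.696 from deviations and 0.454 without Flox 2 and 3. In all, 22.8% of tested genes had an absolute r of that order (at least 0.674) to the acute phase score. The score was 8.65 ± 0.73 in LKO and 10.02 ± 1.81 in Flox (SD, n = 5 each). Its part in the levels of Egr1, Fosb and Junb was not tested.

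The clock score averages 17 genes, of which 12 had a positive and 5 a negative log2 fold change, so it is no measure of clock phase. Egr1 was higher where this score was higher, with r = 0.776 and rho = 0.770 (permutation p = 0.0112 and 0.0121, adjusted 0.281 and 0.278). This r was 0.673 from deviations and 0.643 without Flox 1 and 3, and 9.83% of all tested genes had an absolute r of at least 0.674 to that score. Fos had r = 0.641 to the clock score but rho = 0.418, and r was 0.253 without Flox 1 and 3. Junb was lower at a higher mitochondrial share of counts, which was 4.64% to 8.38% in LKO and 3.12% to 8.31% in Flox, with r = -0.721 and rho = -0.576 (permutation p = 0.0178 and 0.0866, adjusted 0.285 and 0.394). Without LKO column 4 r was -0.955, and without it and Flox 2 it was -0.964. Dusp1 had r = 0.643 and rho = 0.673 to the same share (permutation p = 0.0470 and 0.0391, adjusted 0.285 and 0.278), and 13.4% of tested genes reached 0.674 there. The 7 Kupffer cell markers were all expressed and summed to 49.2 to 441 CPM in LKO and 79.5 to 519 CPM in Flox. Of the 10 genes, sparse Fosb alone had an unadjusted p under 0.05 by Pearson's r against their score (r = -0.678), where 8.02% of tested genes reached 0.674. What part RNA quality or macrophage content plays in these levels was not tested.

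**Figure D5:**
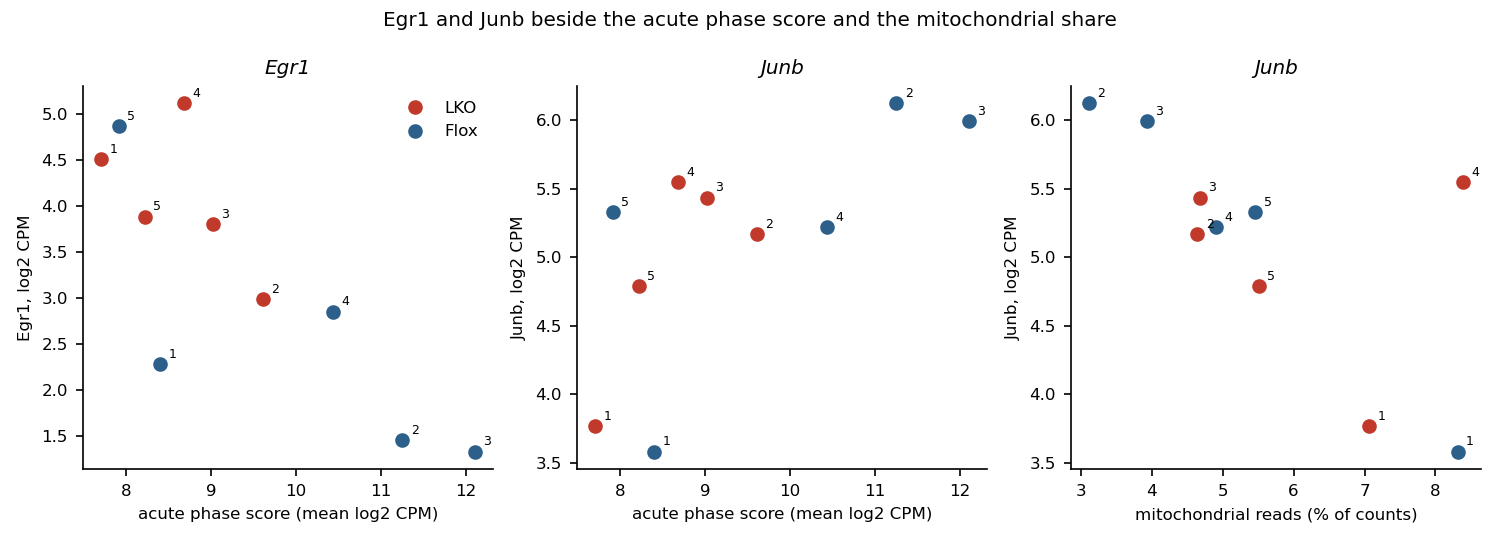
Log2 CPM of Egr1 and Junb in each LKO (red) and Flox (blue) library against the acute phase score, and of Junb against the percentage of counts from mitochondrial genes. Digits are column numbers. Egr1 is lowest in Flox 2 and 3, where the acute phase score is highest. In the right panel LKO column 4 and Flox 1 have like mitochondrial shares (8.38% and 8.31%). LKO column 4 stands apart by its higher Junb (5.55 log2 CPM, against 3.58 in Flox 1).

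To find genes with a like pattern, the mean of the 10 standardised profiles was compared with 10900 genes at a mean log2 CPM of at least 1. The highest values of r over the 10 libraries were those of Slc36a4 (0.923), an amino acid transporter, Nufip2 (0.922), an RNA-binding protein, Lats2 (0.914), a Hippo pathway kinase, Tmc7 (0.911) and Actn1 (0.904), an actin crosslinker. The most negative were Tubb2b (-0.943), Cpox (-0.927), an enzyme of haem synthesis, Tubb4b (-0.918), Harbi1 (-0.915) and Tubb2a (-0.909). Tubb2b, Tubb4b and Tubb2a all encode beta-tubulins, and whether reads were shared between these genes was not tested. For Fos alone the nearest were Pkd2 (0.894), the polycystin 2 channel, Gcnt2 (0.849), Cep57 (0.848), Hemk1 (0.848) and Socs7 (0.845). Lats2 averaged 7.09 ± 1.59 CPM in LKO and 6.45 ± 1.43 CPM in Flox, and Tubb2a 129 ± 72.4 CPM in LKO and 126 ± 58.9 CPM in Flox (SD, n = 5 each). These values rank genes over 10 libraries and carry no test.

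A wider list of 42 immediate early genes, with other AP-1, EGR, NR4A and KLF factors and phosphatases, had 36 tested members. None passed edgeR's test over all genes (smallest adjusted p = 0.652). Of the 36, 3 had an unadjusted p under 0.05, against 7.51% of all tested genes, so the list did not stand out. The list had 16 positive and 20 negative log2 fold changes with a median of -0.04, and its median within-group SD was 0.53. Rhob, a small GTPase, averaged 21.3 ± 3.75 CPM in LKO and 27.7 ± 4.22 CPM in Flox (log2 fold change -0.38 ± 0.14 SE). Fosl2, the Fos family member that outlasts Fos after a stimulus, had 5.88, 7.48, 7.32, 7.44 and 7.30 CPM in LKO columns 1 to 5, against 7.63, 13.6, 15.4, 8.78 and 6.98 CPM in Flox libraries 1 to 5. Its high values were in Flox 2 and 3, as for Junb. Klf10, a factor induced by TGF-beta and under clock control, chosen after its values were seen, averaged 18.4 ± 6.56 CPM in LKO and 9.53 ± 5.15 CPM in Flox (log2 fold change 0.95 ± 0.39 SE, adjusted p = 0.652).

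Upstream kinases and transcription factors, such as SRF, ETS partners, CREB and MAP kinases, showed no member past the test. All 28 were tested, 0 passed, 15 had a positive and 13 a negative log2 fold change with a median of 0.03, and their median within-group SD was 0.18, close to the median of 0.183 for all genes with a mean log2 CPM near 4.5. The smallest p-values belonged to Mrtfa, the actin-regulated partner of SRF, at 7.71 ± 0.689 CPM in LKO and 9.71 ± 1.82 CPM in Flox, and to Stat3, the cytokine-activated factor, at 111 ± 20.2 CPM in LKO and 159 ± 57.3 CPM in Flox. Neither passed (adjusted p = 0.652 each).

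Other lists gave the setting. Of 12 heat shock genes 0 passed, with a median log2 fold change of -0.20, and the smallest p-values were those of the co-chaperone Bag3 (51.5 ± 6.94 CPM in LKO and 66.3 ± 8.13 CPM in Flox) and the small heat shock protein Hspb1 (15.7 ± 3.45 CPM in LKO and 26.4 ± 14.2 CPM in Flox). Of 12 genes responsive to glucocorticoids and fasting 0 passed, with a median of -0.14, and Igfbp1 averaged 15.2 ± 2.71 CPM in LKO and 57.2 ± 79.7 CPM in Flox, and Pck1 1383 ± 286 CPM in LKO and 1910 ± 464 CPM in Flox. Of 17 clock genes 0 passed, with a median of 0.17, and the smallest p-values were those of Nfil3 (21.9 ± 11.6 CPM in LKO and 42.2 ± 27.8 CPM in Flox) and Nr1d1 (89.5 ± 6.37 CPM in LKO and 58.7 ± 41.3 CPM in Flox). Of 17 acute phase genes 0 passed, and 12 had an unadjusted p under 0.05, against 7.51% of all tested genes. All 17 had negative log2 fold changes, with a median of -1.41. Their score was 7.71, 9.61, 9.02, 8.69 and 8.22 in LKO columns 1 to 5, against 8.40, 11.25, 12.102, 10.44 and 7.92 in Flox libraries 1 to 5, so Flox 2, 3 and 4 were high and Flox 1 and 5 lay within the LKO range.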

How the data were processed

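Liver RNA selected with oligo-dT was sequenced in 10 libraries, 5 LKO and 5 Flox. The authors deposited raw counts for each Ensembl gene, not normalized, per the file headers. Build GRCm38 and the tools STAR 2.5.1a, featureCounts 1.4.6-p5, Subread and bcl2fastq are listed in the submitters' processing notes. The sources used here do not give the strand setting, the annotation release or the handling of reads with several hits. After 287 repeated lines with identical counts were dropped, 55487 genes remained. Genes were kept with filterByExpr (15894), scaled by TMM (factors 0.963 to 1.04) and compared with edgeR 4.0.16 (quasi-likelihood F test, robust, R 4.3.3), with Benjamini-Hochberg adjustment over all genes and a threshold of 0.05. CPM use TMM-scaled library sizes, except the sums of marker genes, which use library totals, and log2 CPM a prior count of 2. Standard errors were derived from the F statistic and 95% intervals from its t quantile. Correlations used 100000 permutations, or exact permutation with fewer than 10 libraries, two-sided. DESeq2 1.42.0 and limma 3.58.1 were alternatives.

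The fit was tested on simulated data. The 10 genes, the lists and the tests were chosen with earlier results of these data known. Named besides them were the 2 list genes with the smallest p, as none passed, and the 5 genes of most like or most opposite profile. The relations to list scores, the DESeq2 filter tuned at 0.1 and the fit without Flox 2 and 3 were added once values had been seen. Cell type marker lists of T and NK cells, B and plasma cells, neutrophils, endothelial, stellate and smooth muscle, bile duct and red cells each had 0 genes past the threshold, as had all tested genes. Unadjusted, edgeR gave p under 0.05 for 5 of 6 red cell markers, all higher in LKO, against 7.51% of all tested genes. The counts were 2 of 6 for T and NK cells, 1 of 4 for neutrophils and 2 of 7 for endothelial cells. They were 2 of 7 for stellate and smooth muscle cells, and 0 of 5 for both B and plasma cells and bile duct.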

Additional observations from a re-analysis of the deposited data

Results flagged for a closer look

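Fos in LKO column 1, at 0.444 CPM, lay apart from the other 4 LKO libraries (1.02 to 1.24 CPM). Its gap to the nearest of them was 0.805 of the group's whole range on the log2 scale, past Dixon's 95% value of 0.71 for 5 samples. This was 1 of 20 sets of 5 libraries examined (10 genes in 2 groups), and chance alone gives about 1 in 20. Flox 1 and 3 had like levels of Fos, at 0.506 and 0.415 CPM.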

How the results depend on the processing

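Of 180 alternative fold changes, 172 kept their direction and their side of the threshold and 8 turned in direction, none with an adjusted p under 0.05. Fosb turned when Flox 5 (0.22) or LKO column 2 (0.04) was left out, Jun without LKO column 5 (-0.0049), Btg2 without LKO column 3 (-0.013), Myc if Flox 4 (0.84) or LKO column 1 (0.11) was left out, or when column number was blocked (0.26). Junb turned without Flox 2 and 3 (0.16). Leaving out 1 library gave 0.09 to 0.45 for Fos, -0.77 to 0.22 for Fosb, -0.0049 to 0.30 for Jun, -0.66 to -0.19 for Junb, 0.67 to 2.13 for Egr1, 0.03 to 0.22 for Ier2, -0.74 to -0.21 for Ier3, -0.013 to 0.34 for Btg2, 0.25 to 0.70 for Dusp1 and -0.52 to 0.84 for Myc. No alternative called any of the 10 genes. Over all genes, DESeq2 called 6 with its filter tuned at 0.1 and 0 with it tuned at 0.05, and the other fits, each library left out included (0 to 0), called 0, with 517 to 2043 genes at an unadjusted p under 0.05. Whether the column numbers pair the libraries cannot be decided from 5 correlations. LKO and Flox libraries of like number had r of 0.354, 0.089, 0.074, 0.099 and 0.288 for numbers 1 to 5, so 2 of 5 exceeded 0.1. LKO columns 1 and 5, or 2 of 5, correlated best with their own number, and columns 2, 3 and 4 with another. The smallest adjusted p of edgeR over all genes was 0.652 without a block on column number and 0.173 with it. With the replicate block on these numbers 0 genes passed, with 1535 at an unadjusted p under 0.05 against 1193 without it.

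Leaving out 1 library gave 0 to 1 pairs of genes past the threshold (Junb with Ier2 without Flox 3) and 0 to 2 relations to list scores. Without Flox 1 the acute phase score passed for Egr1 (r = -0.933, adjusted p = 0.0205), as did the mitochondrial share (r = 0.884, adjusted p = 0.0396), and without LKO column 4 the mitochondrial share passed for Junb (r = -0.955). Without the 2 libraries of most extreme share, 1 relation passed (Junb, r = -0.964, adjusted p = 0.0347). The cause was not tested. Leaving out 1 library moved some SDs by over 1.5-fold, those given above for Fos, Junb, Egr1 and Myc and, in Flox, those of Btg2 (0.097 without Flox 2), Jun (0.197 without Flox 1) and Fosb (0.477 without Flox 5). Depth limits Fosb, Ier3 and Fos, with 3 to 71 counts per library, and counting errors quoted cover counting only.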
